A study of Mus musculus with 22 samples.

Results

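The cerebellins, neurexins and neuroligins examined here were 9 mouse genes chosen by symbol from what is known of the pathway, with earlier results of these data known: the secreted cerebellins Cbln1, Cbln2, Cbln3 and Cbln4, the neurexins Nrxn2 and Nrxn3, and the neuroligins Nlgn1, Nlgn2 and Nlgn3. They were 9 of the 55385 genes in the files and had 57 annotated transcripts, and all 9 passed the filter on low counts that left 20524 genes for testing. Their mRNA was measured on tagged ribosomes of 6 cell types of the mouse brain with the RiboTag line, in which Cre recombination makes a cell tag its ribosomal protein RPL22 with HA, so that ribosomes and the mRNA on them can be pulled down with anti-HA beads. All mice were 6 weeks old and carried 1 floxed Rpl22 allele (Rpl22 Fl/+) and a Cre driver. The groups differ in driver, in tissue and, as given below, in tamoxifen treatment, and none is an untagged control. Cerebellar granule cells were marked by Gabra6-Cre in the cerebellum, and 1 driver, Rbp4-Cre, marked dentate gyrus granule cells in the hippocampus and layer V neurons in the cortex. Inhibitory interneurons of the hippocampus were marked by Dlx6a-Cre, with tissue of 2 mice pooled in each library. Cortical astrocytes were marked by a driver labelled Aldh1-cre, which the methods list as Aldh1l1-cre/ERT2, and cortical microglia by a Tmem119 driver, both of which the methods describe as tamoxifen-inducible. The methods state that mice of inducible lines received tamoxifen by oral gavage from 3 weeks of age. Tamoxifen thus goes with the glial groups and cannot be told apart from the difference between neurons and glia. Each cell type had 3 biological replicates, so that 18 libraries entered, 12 from neurons and 6 from glia.

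Neurexins are transmembrane proteins of the presynaptic membrane. Each neurexin gene makes a long alpha form and, from a promoter inside the gene, a short beta form, and alternative exons then set which partners the protein can bind. Neuroligins are postsynaptic partners of neurexins: NLGN1 is known from excitatory synapses, NLGN2 from inhibitory synapses and NLGN3 from both. Cerebellins are secreted proteins of the C1q family that bridge neurexins that carry an insert at splice site 4 and delta glutamate receptors. In the cerebellum, granule cells secrete cerebellin 1 at their synapses onto Purkinje cells.

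Total estimated counts of the 18 libraries ran from 38270477 to 71440915. The defining markers separated the cell types: Gabra6 lay at 3870 to 3916 TPM (a share of a library's transcripts, corrected for their length) in cerebellar granule cells and at 0.302 TPM or less in every other library, and Fezf2 at 84.6 to 86.6 TPM in layer V neurons and at 23.7 TPM or less elsewhere. The 3 layer V markers together were not particular to layer V neurons, since Etv1 was at 712 to 745 TPM in cerebellar granule cells and Bcl11b at 147 to 171 TPM in dentate granule cells. Oligodendrocyte markers summed to 2435 to 2614 TPM in interneuron libraries and to 99.9 to 929 TPM in the others, and neuronal markers summed to 638 to 879 TPM in astrocyte and 314 to 352 TPM in microglia libraries, against 2973 to 12370 TPM in neurons. Interneuron and microglia libraries came from the second sequencing batch alone. The part of carried-over RNA and of batch in the values below was not tested except where a value within a batch is given, and fewer cells of a type cannot be told apart from less RNA per cell in such bulk samples.

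Cbln1 and Cbln3 were cerebellar granule cell mRNAs. Cbln1, the secreted ligand that joins granule cell axons to Purkinje cells, was at 2367, 2271 and 2205 TPM in the cerebellar granule cell libraries, a mean of 2281 ± 81.8 (SD, n = 3). The next cell type was layer V neurons with 25.5, 26.4 and 28.5 TPM (26.8 ± 1.53), which is 85.1 times less. Dentate granule cells followed with 5.71, 11.1 and 14.2 TPM, a spread of more than 2-fold between replicates that no other group with over 10 TPM of Cbln1 showed. Interneurons held 1.94, 4.53 and 1.84 TPM, astrocytes 2.24, 2.77 and 3.19 TPM, and microglia 1.63, 1.29 and 1.05 TPM. The granule cell libraries stood apart from all 15 others, layer V neurons lay above all dentate libraries, and the ranges of interneurons and astrocytes overlapped. By edgeR's quasi-likelihood test on the counts, adjusted by Benjamini-Hochberg over all genes tested, cerebellar granule cells exceeded layer V neurons by 6.25 ± 0.28 (log2, SE, adjusted p = 5.29e-13) and layer V neurons exceeded dentate granule cells by 1.64 ± 0.25 (adjusted p = 1.50e-05). Interneurons and astrocytes differed by -0.37 ± 0.32 (adjusted p = 0.306, 95% interval -1.06 to 0.32).

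Cbln3, a cerebellin that is secreted only together with cerebellin 1, was at 1675, 1685 and 1639 TPM in cerebellar granule cells, a mean of 1667 ± 24.1 (SD, n = 3). In the other 15 libraries it lay between 0.135 and 0.670 TPM, on 21.0 to 94.5 estimated reads a library. Its mean in cerebellar granule cells was 2566 times that of the next cell type, the interneurons (0.650 ± 0.0333), and the log2 difference between these was 11.45 ± 0.09 (adjusted p = 4.20e-22). Below that, each step from interneurons to layer V neurons, dentate granule cells and astrocytes passed the test, at 0.54, 0.60 and 0.59 on the log2 scale, while astrocytes and microglia differed by 0.06 ± 0.15 (adjusted p = 0.831). The step between layer V neurons and dentate granule cells was lost with the second-batch libraries in place of the repeated first-batch ones (0.35, adjusted p = 0.0599). Within the second batch, which holds 1 library of each of these cell types, it was 0.01. The part of RNA carried over between cells in such low levels was not tested.

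The 250 bases before the start of the main Cbln3 transcript are shown because this member had the largest difference between cerebellar granule cells and the other cell types. They come from GRCm38.p6 (GENCODE M21 gene models), minus strand, at chr14:55884393-55884642. Capitals mark each match of the short E-box motif CANNTG, which reads the same on both strands.
Cbln3 upstream: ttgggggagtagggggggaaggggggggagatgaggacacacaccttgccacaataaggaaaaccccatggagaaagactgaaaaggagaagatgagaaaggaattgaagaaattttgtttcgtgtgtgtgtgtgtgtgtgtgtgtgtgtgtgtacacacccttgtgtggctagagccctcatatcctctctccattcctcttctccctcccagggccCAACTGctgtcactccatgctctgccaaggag
The window held 1 match, 32 bases before the start. A match is common, since 66.2% of 32851 RefSeq promoter windows of mouse genes held at least 1.

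Cbln2 and Cbln4 had the opposite pattern, with almost no reads in cerebellar granule cells. Cbln2 was at 35.1, 42.4 and 42.0 TPM in interneurons (39.9 ± 4.12, SD, n = 3) and at 34.5, 37.5 and 41.0 TPM in layer V neurons (37.7 ± 3.28), 2 ranges that overlapped. It was lower in astrocytes with 7.25, 9.12 and 6.31 TPM, in microglia with 2.87, 3.67 and 3.17 TPM and in dentate granule cells with 0.712, 1.65 and 2.95 TPM. Interneurons and layer V neurons differed by -0.21 ± 0.23 on the log2 scale of counts (adjusted p = 0.450, interval -0.71 to 0.29), and layer V neurons exceeded astrocytes by 2.18 ± 0.24 (adjusted p = 2.04e-07). The 2 neuronal types that share the Rbp4-Cre driver were thus far apart, layer V neurons above dentate granule cells by 4.62 ± 0.29 (adjusted p = 2.38e-10). The 3 cerebellar granule cell libraries held 10, 0 and 1 estimated reads of Cbln2, together 0.0651 CPM, the count scaled to library size (exact Poisson 95% interval 0.0325 to 0.117, for counting error alone). Interneurons were higher by 638-fold (interval 357 to 1278). Since 10 of the 11 reads lay in replicate 1, the size rests on that library, and without it the fitted log2 difference of cerebellar granule cells from the other neurons moved from -7.62 to -10.09.

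Cbln4 was an interneuron mRNA among these cell types. It was at 44.7, 53.9 and 45.6 TPM in interneurons, a mean of 48.1 ± 5.06 (SD, n = 3), 9.85 times that of layer V neurons, which held 4.95, 4.85 and 4.83 TPM. Astrocytes had 1.98, 2.18 and 1.88 TPM, dentate granule cells 1.02, 1.18 and 1.87 TPM and microglia 1.17, 1.09 and 0.956 TPM. All interneuron libraries lay above the layer V ones and these above the rest, whereas dentate granule cells and microglia overlapped (0.11 ± 0.16 on the log2 scale, adjusted p = 0.537, interval -0.24 to 0.47). Interneurons exceeded layer V neurons by 3.00 ± 0.13 (adjusted p = 1.53e-12). Cerebellar granule cells held 1, 2 and 2 reads of Cbln4, or 0.0296 CPM (interval 0.00961 to 0.0691), which is 2310.1-fold under the interneurons (interval 989.9 to 7115). Dentate replicate 3 was the highest of its group for Cbln1, Cbln2 and Cbln4 alike.

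**Figure D1:**
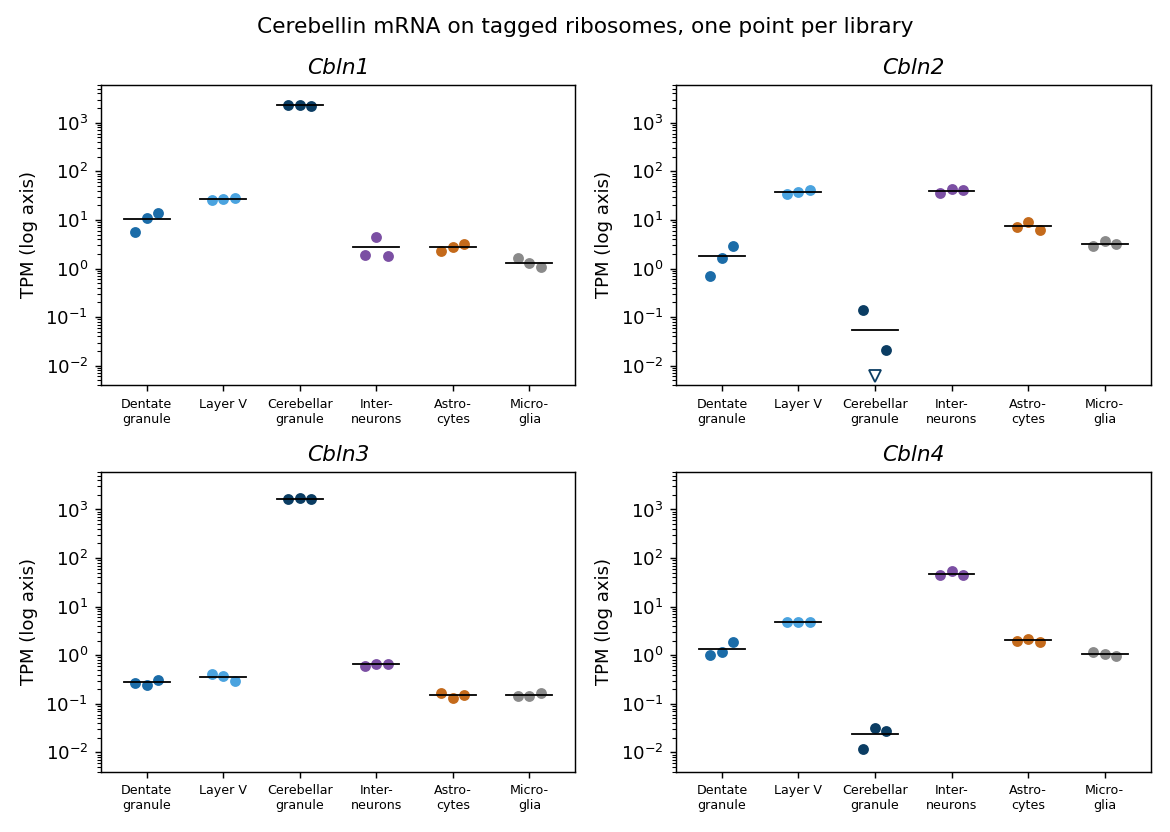
Levels of the 4 cerebellin mRNAs in TPM on a log axis, 1 point for each of the 18 libraries, with a bar at the mean of each cell type. Cbln1 and Cbln3 stand at 2281 and 1667 TPM in cerebellar granule cells, Cbln2 lies near 40 TPM in interneurons and layer V neurons, Cbln4 near 48.1 TPM in interneurons, and the open triangle marks the cerebellar granule cell library with no Cbln2 read.

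Neurexin mRNA was present in every library, and in TPM both genes were above all glial libraries in the 12 neuronal ones. Nrxn2 was at 842, 853 and 736 TPM in cerebellar granule cells (810.3 ± 64.3, SD, n = 3), above every other library. The short non-coding transcripts Nrxn2-211 and Nrxn2-213 held 18.8% and 23.6% of this level. In the other cell types they held 10.1% to 21.7% and 9.37% to 25.8%. Layer V neurons held 458, 439 and 463 TPM, interneurons 446, 440.1 and 451 TPM, and dentate granule cells 341, 418 and 396 TPM. Layer V neurons and interneurons overlapped in TPM, and dentate replicate 1 lay under the other neuronal libraries. Astrocytes held 274, 249 and 275 TPM of Nrxn2 and microglia 52.5, 59.5 and 58.8 TPM. Cerebellar granule cells exceeded layer V neurons by 0.54 ± 0.07 on the log2 scale of counts (adjusted p = 7.03e-07) and astrocytes exceeded microglia by 2.57 ± 0.07 (adjusted p = 4.77e-16). Dentate granule cells and astrocytes differed by -0.08 ± 0.07 in the count test (adjusted p = 0.307), although all dentate libraries lay above the astrocyte ones in TPM. The 2 scales differ in that TPM divides by transcript length and by the total of a library, while the test scales counts by TMM (trimmed mean of M values) factors.

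Nrxn3 split the neurons more than Nrxn2 did. It was at 240.4, 266 and 238 TPM in interneurons (248 ± 15.4, SD, n = 3) and at 262, 229 and 231 TPM in cerebellar granule cells (241 ± 18.7), with overlapping ranges. Layer V neurons held 73.1, 70.2 and 74.0 TPM, dentate granule cells 30.4, 33.8 and 35.7 TPM, astrocytes 18.1, 18.4 and 18.4 TPM and microglia 8.12, 9.27 and 8.79 TPM. From layer V neurons down, no range overlapped with the next. Cerebellar granule cells exceeded layer V neurons by 1.21 ± 0.07 on the log2 scale (adjusted p = 4.14e-11), and these exceeded dentate granule cells by 1.57 ± 0.07 (adjusted p = 5.64e-12). The difference of interneurons over cerebellar granule cells, 0.17 ± 0.07 (adjusted p = 0.0361), was lost in 14 of the 18 fits that left out 1 library, with values from 0.08 to 0.22, and is not treated as a difference here.

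Neuroligin mRNAs were present in every cell type, and microglia held the least of each. Nlgn1, the neuroligin of excitatory synapses, was at 43.5, 47.9 and 43.4 TPM in dentate granule cells (44.9 ± 2.54, SD, n = 3) and at 41.8, 41.3 and 43.7 TPM in layer V neurons (42.3 ± 1.27). Interneurons held 30.0, 35.6 and 28.5 TPM and astrocytes 29.0, 28.5 and 27.8 TPM, while cerebellar granule cells had 15.1, 15.9 and 16.3 TPM, less than astrocytes. Microglia held 2.95, 3.26 and 2.97 TPM. Dentate granule cells and layer V neurons overlapped in TPM, and the count test put layer V neurons higher by 0.32 ± 0.07 (adjusted p = 0.000714), so that their order depends on the scale. Interneurons and astrocytes overlapped as well and differed by -0.10 ± 0.07 (adjusted p = 0.209, interval -0.26 to 0.05), and astrocytes exceeded cerebellar granule cells by 0.92 ± 0.07 (adjusted p = 1.42e-09).

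Nlgn2, the neuroligin of inhibitory synapses, was at 179, 176 and 173 TPM in interneurons (176 ± 3.10, SD, n = 3), 159.5, 144 and 146 TPM in layer V neurons, and 123, 136 and 129 TPM in dentate granule cells. Cerebellar granule cells held 105, 104 and 99.6 TPM, astrocytes 60.4, 55.8 and 53.3 TPM and microglia 25.7, 25.0 and 24.2 TPM. No 2 neighbouring cell types overlapped in TPM. The count test did not separate interneurons from layer V neurons (-0.00 ± 0.05 on the log2 scale, adjusted p = 0.990, interval -0.11 to 0.11), and the other 4 steps passed, from 0.29 ± 0.05 between dentate and cerebellar granule cells to 1.30 ± 0.05 between astrocytes and microglia.

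Nlgn3, which is found at both kinds of synapse, was highest in dentate granule cells with 77.9, 85.4 and 73.3 TPM (78.9 ± 6.14, SD, n = 3). Interneurons held 47.8, 49.5 and 45.3 TPM, astrocytes 37.4, 36.4 and 37.5 TPM, layer V neurons 33.4, 29.7 and 34.3 TPM, cerebellar granule cells 30.4, 28.3 and 30.8 TPM and microglia 4.69, 4.43 and 4.88 TPM. The dentate libraries stood above all others, and cerebellar granule cells overlapped with layer V neurons. Dentate granule cells exceeded interneurons by 0.72 ± 0.06 on the log2 scale (adjusted p = 1.02e-08). Astrocytes differed neither from interneurons (0.10 ± 0.06, adjusted p = 0.167, interval -0.04 to 0.23) nor from layer V neurons (0.13 ± 0.06, adjusted p = 0.0702, interval -0.01 to 0.26) past the threshold, and the first of these passed in 12 of the 18 fits that left out 1 library. Over the 9 genes, 36 of the 45 steps between neighbouring cell types passed, in either direction. They include the Nlgn1 step between dentate granule cells and layer V neurons, where the count test ran against the TPM order. The Nrxn3 step between interneurons and cerebellar granule cells, not treated as a difference above, is also among them. Of all tests of a gene over the 15 pairs of cell types 75.1% passed, a share that is not limited to neighbours.

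**Figure D2:**
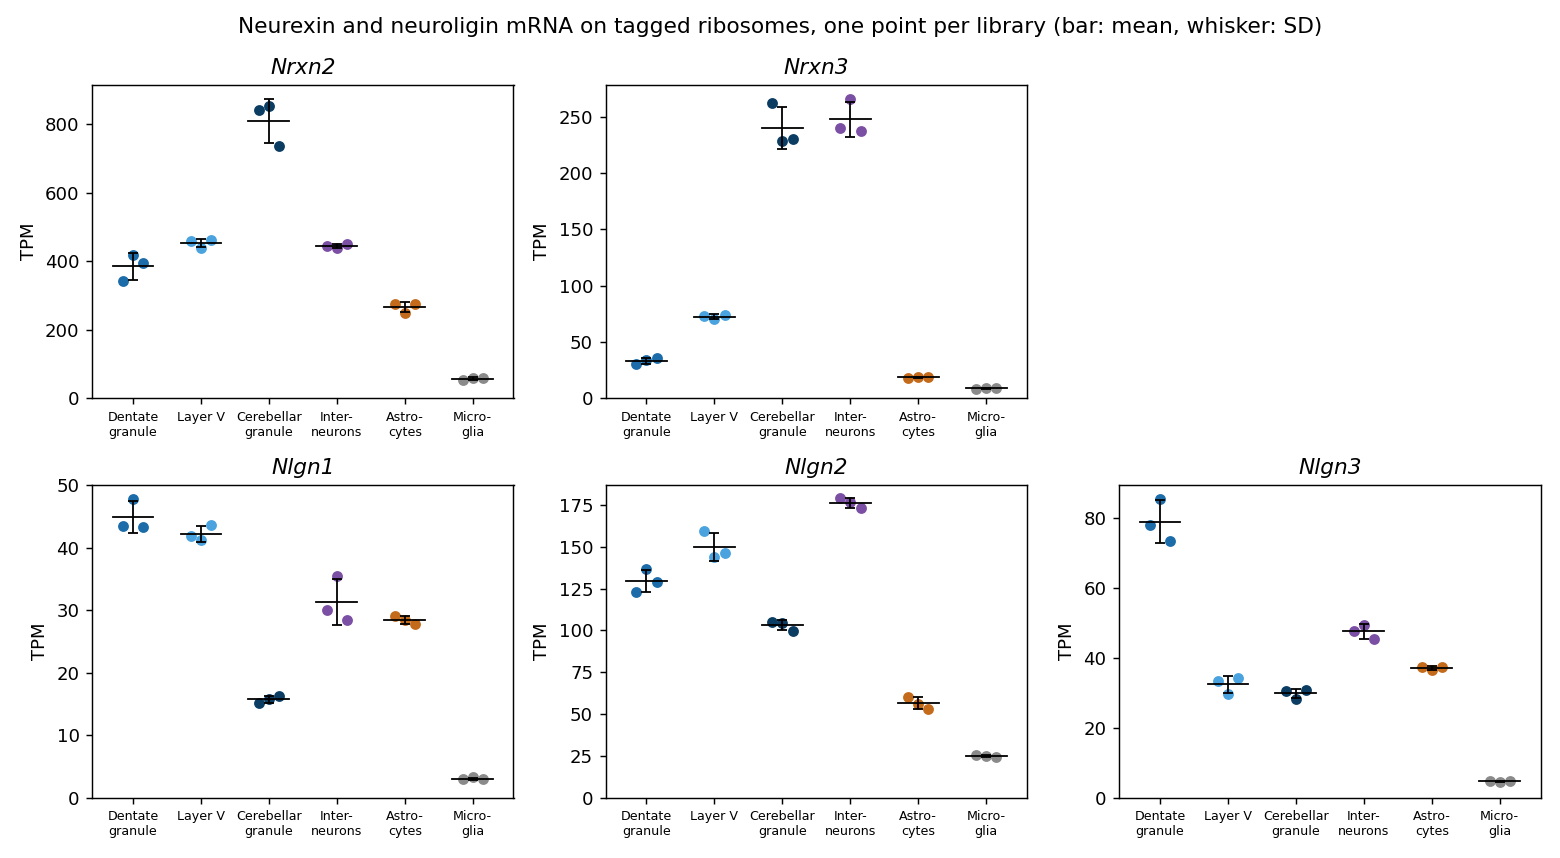
Levels of the neurexin and neuroligin mRNAs in TPM, 1 point for each library, with a bar at the mean and a whisker of 1 SD (n = 3). Nrxn2 is highest in cerebellar granule cells (810.3 TPM), Nrxn3 in interneurons and cerebellar granule cells (248 and 241 TPM), Nlgn3 in dentate granule cells (78.9 TPM), and microglia are lowest in all 5 panels.

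Each cell type was next compared with the mean log2 level of its counterparts, to ask which members set neurons apart from glia and each neuron apart from the other 3. Against glia, neurons were higher in 7 of the 9 genes and lower in 1, and 83.3% of all genes tested were called in this comparison, 36.4% as higher and 46.8% as lower. Nrxn3 differed by 2.90 ± 0.05 on the log2 scale and Nrxn2 by 1.67 ± 0.04, Nlgn2 by 1.70 ± 0.03, Nlgn1 by 1.62 ± 0.05 and Nlgn3 by 1.60 ± 0.04, with adjusted p from 4.24e-19 to 6.56e-16. In comparisons that average cell types, the SE and adjusted p reflect the spread between libraries of a cell type. They do not measure the spread between cell types, so they do not extend to neurons or glia at large. Cbln1 (4.00 ± 0.20) and Cbln3 (4.20 ± 0.08) were higher too, and without cerebellar granule cells, a setting chosen after seeing the data, the values were 2.00 and 1.20. Cbln2 was lower in neurons, at -0.66 ± 0.23 (adjusted p = 0.0147), and Cbln4 was not called, at -0.03 ± 0.10. Both means include the near-empty cerebellar granule cells, and without these cells Cbln2 was higher in neurons by 1.24 ± 0.17 and Cbln4 by 2.00 ± 0.10. The call for Cbln2 was also lost without cerebellar granule cell replicate 2 (-0.50, adjusted p = 0.0583) or replicate 3 (-0.52, adjusted p = 0.0611).

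Against astrocytes alone, neuronal types differed in opposite directions for Nlgn1 and Nlgn3. Nlgn1 was higher than in astrocytes in dentate granule cells (0.49 ± 0.07, adjusted p = 5.67e-06) and layer V neurons (0.81 ± 0.07, adjusted p = 7.94e-09) and lower in cerebellar granule cells (-0.92 ± 0.07, adjusted p = 1.42e-09). Nlgn3 was higher in dentate granule cells (0.82 ± 0.06, adjusted p = 1.03e-09) and lower in cerebellar granule cells (-0.43 ± 0.06, adjusted p = 4.95e-06). Within the first batch, which holds astrocytes as the glial group and no interneurons, the mean over these neurons differed by 0.07 for Nlgn1 (adjusted p = 0.140) and by 0.03 for Nlgn3 (adjusted p = 0.559). Astrocytes exceeded microglia in 8 of the 9 members, and 76.1% of all genes tested were called in that comparison, 39.8% as higher and 36.3% as lower. The largest differences were 3.10 ± 0.08 for Nlgn1, 3.02 ± 0.07 for Nlgn3 and 2.57 ± 0.07 for Nrxn2, and the others called lay between 0.98 for Cbln4 and 1.34 for Cbln2. Cbln3 was not called (0.06 ± 0.15, adjusted p = 0.831), and the call for Cbln1 (1.05 ± 0.34) was lost without astrocyte replicate 3 (0.84, adjusted p = 0.0534). The summed neuronal markers were also higher in astrocyte libraries (638 to 879 TPM) than in microglia libraries (314 to 352 TPM), and their part in these differences was not tested.

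Cerebellar granule cells differed from the other neurons in all 9 genes, 4 higher and 5 lower, in a comparison that called 77.9% of all genes, 34.9% as higher and 43% as lower. Cbln3 was higher by 12.01 ± 0.06 on the log2 scale, the sixth largest rise of all 20524 genes, and Cbln1 by 7.995 ± 0.19. Both neurexins were higher, Nrxn3 by 1.27 ± 0.05 and Nrxn2 by 0.77 ± 0.05. The 3 neuroligins were lower, Nlgn1 by -1.32 ± 0.06, Nlgn3 by -0.69 ± 0.05 and Nlgn2 by -0.55 ± 0.04 on the log2 scale. Cbln2 and Cbln4 were lower as well, with fitted differences of -7.62 ± 0.45 and -8.12 ± 0.26 that rest on 11 and 5 reads. The median absolute log2 difference was 1.32 over the 9 genes and 0.92 over all genes tested.

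Dentate granule cells were higher than the other neurons in 2 members and lower in 6, where 64.2% of all genes were called, 36.5% as higher and 27.6% as lower. Nlgn3 was higher by 0.97 ± 0.05 on the log2 scale and Nlgn1 by 0.56 ± 0.06, of which Nlgn1 was no longer called without cerebellar granule cells (0.14 ± 0.06, adjusted p = 0.0585) and Nlgn3 was (0.84 ± 0.05). Nrxn3 was lower by -2.43 ± 0.07 and remained so without those cells (-2.26 ± 0.07), and Nrxn2 was lower by -0.62 ± 0.06. Of the cerebellins, Cbln2 was at -1.47 ± 0.47 and Cbln4, not called, at -0.47 ± 0.28 against a mean that again holds the near-empty cerebellar cells. Against layer V neurons and interneurons alone, dentate granule cells were lower in Cbln2 by -4.51 ± 0.28 and in Cbln4 by -3.57 ± 0.14. The Cbln2 call was lost without cerebellar granule cell replicate 1 (-0.66, adjusted p = 0.671), and without dentate replicate 3 Cbln4 passed (-0.78, adjusted p = 0.0174).

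Layer V neurons were higher in 4 members and lower in 3, where 67.6% of all genes were called, 35.9% as higher and 31.7% as lower. Cbln2 was higher by 4.69 ± 0.23 on the log2 scale, and by 2.41 ± 0.21 against dentate granule cells and interneurons alone. Cbln4 turned from 2.30 ± 0.16 to -0.46 ± 0.12 (adjusted p = 0.00227) and Cbln1 from -0.34 ± 0.20, not called, to 2.61 ± 0.21 once cerebellar granule cells were left out. The neuroligins moved less: Nlgn1 was higher by 0.98 ± 0.05 (0.61 without those cells), Nlgn2 by 0.36 ± 0.04 (0.20) and Nlgn3 was lower by -0.29 ± 0.05 (-0.59). Nrxn2 was not called at 0.06 ± 0.05 (adjusted p = 0.357), and Nrxn3, at -0.34 ± 0.06, was not called without cerebellar granule cells (0.09 ± 0.06, adjusted p = 0.201).

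Interneurons were higher in 4 members and lower in 4, where 64.4% of all genes were called, 36% as higher and 28.4% as lower. Cbln4 was higher by 6.29 ± 0.12 on the log2 scale, Cbln2 by 4.41 ± 0.23, Nrxn3 by 1.499 ± 0.05 and Nlgn2 by 0.36 ± 0.04. Against dentate granule cells and layer V neurons alone these were 4.03 ± 0.11, 2.10 ± 0.21, 2.16 ± 0.06 and 0.20 ± 0.04, so that all 4 held without the cerebellar libraries. Cbln1 was lower by -5.13 ± 0.28 and by -2.77 ± 0.27 without them, whereas Cbln3 turned from -3.25 ± 0.08 to 0.84 ± 0.10. Nlgn1 was lower by -0.23 ± 0.06, a call that was lost without interneuron replicate 3 (-0.14, adjusted p = 0.0651), and Nlgn3 did not differ past the threshold (0.01 ± 0.05, adjusted p = 0.904) but was lower without the cerebellar libraries (-0.25 ± 0.05, adjusted p = 0.000588). Oligodendrocyte markers were highest in the interneuron libraries, as given above, and their part in these values was not tested.

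**Figure D3:**
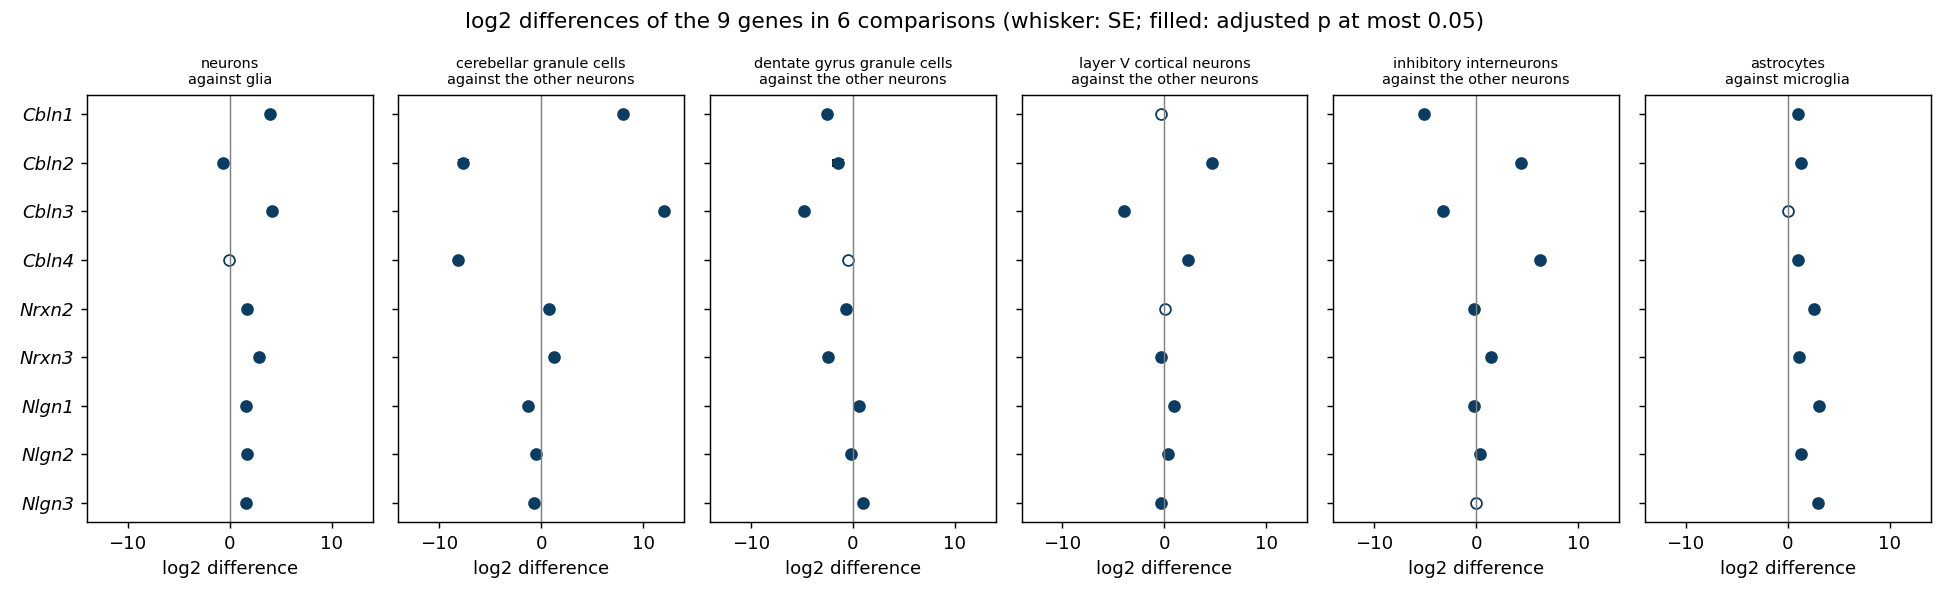
Log2 differences of the 9 genes in 6 comparisons, with the SE as a whisker that is mostly shorter than the symbol; filled symbols passed at an adjusted p of 0.05. Cbln1 and Cbln3 lie far to the right and Cbln2 and Cbln4 far to the left for cerebellar granule cells (7.995, 12.01, -7.62 and -8.12), and neurexins and neuroligins stay within 3.10 of 0 throughout.

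A test of any difference among the 6 cell types called all 9 genes, with 97.3% of all genes called. The genes whose log2 CPM followed each member most closely over the 18 libraries are given as a description, since libraries of 1 cell type are not independent points. Cbln4 was followed by Kcnc2, a potassium channel gene, and by Sst, which encodes the interneuron peptide somatostatin (Pearson's r = 0.996 and 0.991), with Baiap2l2 at 0.995. Cbln3 was followed by the transcription factor genes Skor2 and Tlx3 and by Sycp1 (0.990, 0.990 and 0.989), and Cbln1 by Shf, Klhdc7b and Ube2e3 (0.988, 0.977 and 0.972). For Cbln2 these were Barx2, Gal3st1 and Phlda3 (0.985, 0.981 and 0.981), for Nrxn2 the glycine receptor subunit gene Glrb, Usp46 and D030056L22Rik (0.994, 0.989 and 0.989), and for Nrxn3 Fstl5, Nap1l5 and the sodium channel gene Scn1a (0.993, 0.992 and 0.989). Nlgn1 was followed by Dmwd, Dok5 and Ankrd13c (0.989, 0.988 and 0.985), Nlgn2 by Zwint, Kif3c and Reep1 (0.991, 0.990 and 0.989), and Nlgn3 by Cbwd1, Scfd2 and Cbx5 (0.990, 0.987 and 0.986).

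Neurexin transcripts were then split into alpha and beta forms by their annotated start and coding length, as the share of beta in the TPM of both. Of the alpha and beta transcripts of Nrxn2, beta held 89.1% ± 0.596 in dentate granule cells (SD, n = 3), 77.3% ± 0.746 in layer V neurons, 77.0% ± 0.925 in microglia, 74.4% ± 1.42 in cerebellar granule cells, 63.7% ± 2.11 in astrocytes and 58.4% ± 1.23 in interneurons. Dentate granule cells lay above and interneurons below all other libraries. As a share of all Nrxn2 TPM, with the other transcripts of the gene included, beta held 58.5% in dentate granule cells and 36.6% to 49.1% in the other cell types, and by counts in place of TPM it held 48.3% of alpha and beta in interneurons. For Nrxn3, beta held the largest share in cerebellar granule cells, at 58.3% ± 0.930. There it was 53.0% without Nrxn3-214, a transcript classed as beta by its length alone, and 40.5% by counts, so that which form is larger depends on the scale. Beta held 30.1% ± 3.13 in dentate granule cells, 30.0% ± 3.04 in microglia, 26.4% ± 2.32 in astrocytes, 20.2% ± 2.17 in interneurons and 14.5% ± 0.362 in layer V neurons. Interneurons and cerebellar granule cells, which had like levels of Nrxn3, thus differed in its form. The beta transcript Nrxn3-202 was at 109 ± 8.73 TPM in cerebellar granule cells and 38.6 ± 3.89 TPM in interneurons, and the alpha transcript Nrxn3-205 at 75.7 and 125 TPM.

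Neurons as a whole did not differ from glia in the beta share past the threshold. The mean difference was 4.46 percentage points for Nrxn2 (74.8% against 70.3%) with p = 0.385 in a two-sided exact permutation test over the 18564 arrangements of the 18 libraries, and 2.57 points for Nrxn3 (30.8% against 28.2%) with p = 0.701. Since libraries of a cell type are alike, the same exact permutation test over the means of the 6 cell types gave p = 0.733 and p = 0.867, and its 15 arrangements cannot reach 0.05. Within the first batch alone the Nrxn2 difference was 16.6 points (p = 0.00909, permutation over libraries), and within the second it was -5.28 points. The p-value treats libraries of a cell type as independent, with astrocytes as the only glia. The first-batch libraries were those already used above for dentate granule cells, layer V neurons, cerebellar granule cells and astrocytes. Their difference is thus that of the shares above without interneurons and microglia. The second batch holds all interneuron and microglia libraries and 1 library of each other cell type. Its difference, taken over libraries, therefore weighs interneurons and microglia most. The part of batch in the shares was not tested.

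Single neurexin transcripts were tested over 61498 transcripts, with those that held at least 5% of their gene's TPM in any cell type named. In cerebellar granule cells against the other neurons, where 47% of all transcripts were called, Nrxn3-202 was higher by 3.31 on the log2 scale and Nrxn3-214, classed as beta by its length, by 2.82, against 0.77 for Nrxn3-205. Nrxn2-204, the one Nrxn2 alpha transcript without the splice site 4 exon, was lower by -2.22, while Nrxn2-216 was higher by 1.62 and the beta transcript Nrxn2-202 by 0.76 (adjusted p from 2.84e-12 to 1.59e-06). The alpha transcript Nrxn2-218 was at 43.8 ± 3.43 TPM in cerebellar granule cells, 0.903 TPM in dentate granule cells and 0 in the other 4 cell types. In interneurons, where 31% of transcripts were called, the Nrxn3 alpha transcripts Nrxn3-208, Nrxn3-213 and Nrxn3-205 were higher by 2.88, 2.00 and 1.62 and the beta transcript Nrxn3-202 by 1.20. For Nrxn2, the alpha transcripts Nrxn2-204 and Nrxn2-216 were higher by 1.48 and 1.504 (log2) and the beta transcript Nrxn2-202 was lower by -0.75. Short non-coding transcripts within Nrxn2 held part of its level, Nrxn2-211 (547 bases) at 152 TPM and Nrxn2-213 (576 bases) at 191 TPM in cerebellar granule cells. These values are kallisto's division of reads among overlapping transcripts.

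The exon at splice site 4 decides whether a neurexin can bind cerebellins, and its sequence in Nrxn3 is shown beside the alternative inserts of the neuroligins. The insert is in capitals, with 15 bases of the spliced sequence on each side in lower case. Coordinates are on GRCm38.p6. The Nrxn3 exon lies at chr12:90199147-90199236 on the plus strand. Nlgn1 insert A lies at chr3:25920178-25920237 and insert B at chr3:25439865-25439891 on the minus strand, and the Nlgn3 inserts A1 and A2 at chrX:101303072-101303131 and chrX:101307075-101307134 on the plus strand. All are coding sequence, and all but insert B are whole exons. Insert B is the part by which a longer exon exceeds a shorter form of it, so the bases before it belong to the same exon.
Nrxn3 splice site 4: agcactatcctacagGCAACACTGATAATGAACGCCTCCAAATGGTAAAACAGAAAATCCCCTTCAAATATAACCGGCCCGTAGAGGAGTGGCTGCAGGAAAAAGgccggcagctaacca
Nlgn1 insert A: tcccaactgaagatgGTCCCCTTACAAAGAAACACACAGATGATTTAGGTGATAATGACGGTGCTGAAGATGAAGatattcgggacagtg
Nlgn1 insert B: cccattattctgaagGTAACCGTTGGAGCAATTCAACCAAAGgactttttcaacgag
Nlgn3 insert A1: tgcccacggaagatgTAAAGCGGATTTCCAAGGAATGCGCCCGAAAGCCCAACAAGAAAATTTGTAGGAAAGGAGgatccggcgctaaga
Nlgn3 insert A2: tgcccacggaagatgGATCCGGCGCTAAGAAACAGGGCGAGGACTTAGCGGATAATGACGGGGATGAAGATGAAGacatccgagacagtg
The Nrxn3 exon was 90 bases long. Nlgn1 insert A, of 60 bases, matched Nlgn3 insert A2 at 43 positions (71.7%) and Nlgn3 insert A1 at 16. Insert B of Nlgn1 had 27 bases, and each of these inserts kept the reading frame, since its length is a multiple of 3.

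Use of the splice site 4 exon by Nrxn2 alpha transcripts differed most between cerebellar granule cells and layer V neurons. These shares were chosen after their values were seen and are given with no test. Transcripts with the exon held 93.7%, 94.4% and 92.4% of Nrxn2 alpha TPM in cerebellar granule cells (93.5% ± 1.03, SD, n = 3) and 26.1%, 25.6% and 25.8% in layer V neurons. The other means were 53.5% in interneurons, 40.9% in dentate granule cells, 34.3% in astrocytes and 32.3% in microglia. Beta transcripts of Nrxn2 carried the exon at 99.3% to 99.9% in every cell type, and Nrxn3 carried it at 82.8% to 88.0% in alpha and 81.3% to 95.9% in beta transcripts. The transcripts differ at other exons too, and their part in the split was not tested.

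The neuroligin inserts varied over a smaller range. Transcripts with both inserts held 67.2% ± 0.625 of Nlgn1 TPM in interneurons (SD, n = 3), 60.8% ± 2.62 in dentate granule cells, 46.5% ± 4.08 in layer V neurons, 45.6% ± 2.75 in cerebellar granule cells, 41.3% ± 1.26 in astrocytes and 38.8% ± 9.19 in microglia, where the level was low. The annotated Nlgn1 transcripts hold both inserts or neither, so that the use of each was not separated. Nlgn3 transcripts with 1 of the 2 inserts held 65.6% to 80.2% of its TPM as cell type means. For Nlgn2, Nlgn2-202, which begins at the upstream start site, held 82.2% ± 3.21 of the TPM of the main transcripts in dentate granule cells and 74.8% to 76.1% in cerebellar granule cells, astrocytes and interneurons, against 50.1% ± 2.83 in microglia and 48.0% ± 1.47 in layer V neurons.

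**Figure D4:**
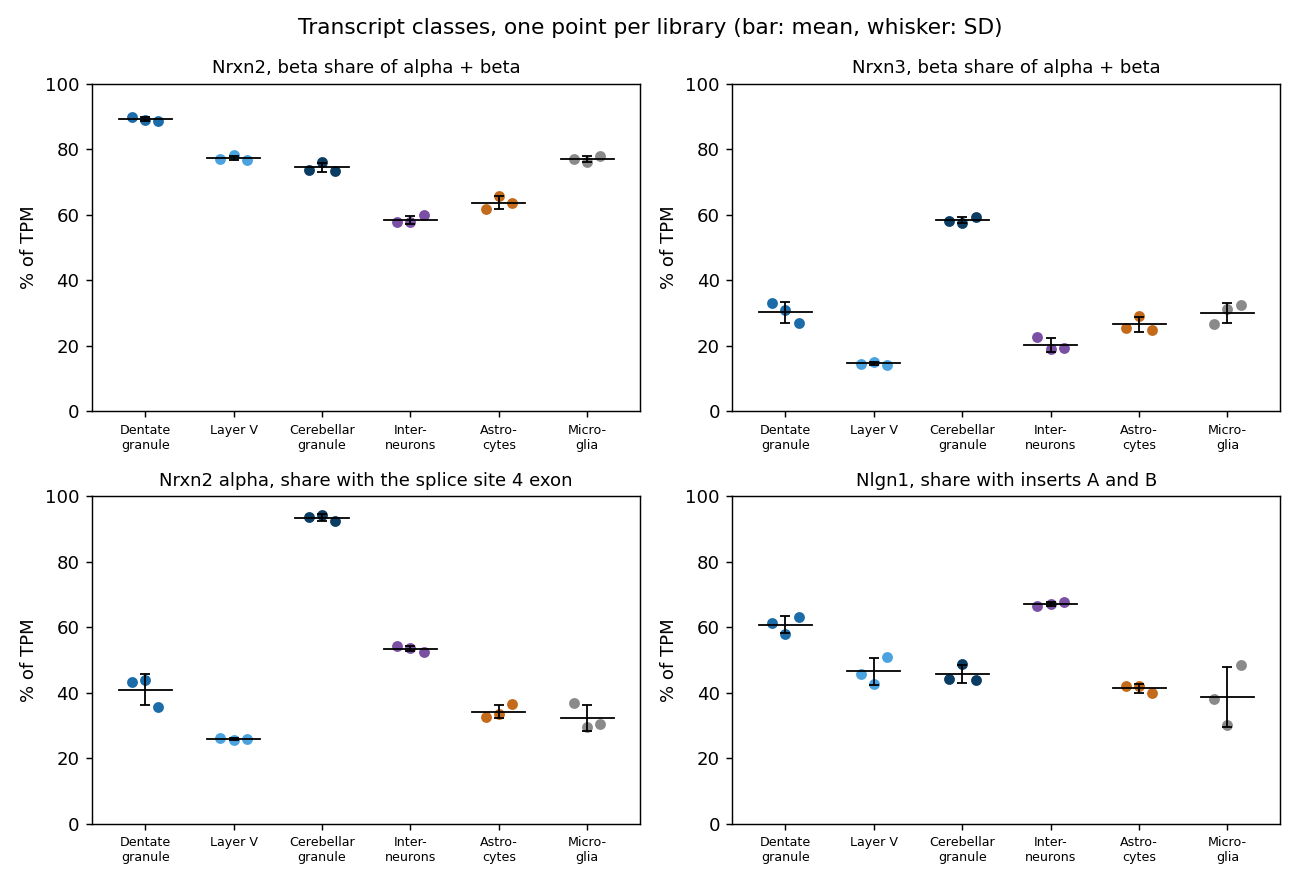
Shares of transcript classes in percent of TPM, 1 point for each library, with a bar at the mean and a whisker of 1 SD (n = 3): beta over alpha and beta for Nrxn2 and Nrxn3, the splice site 4 exon in Nrxn2 alpha transcripts, and both inserts in Nlgn1. Cerebellar granule cells stand out in the Nrxn3 beta share (58.3%) and in the Nrxn2 splice site 4 share (93.5%), and microglia are the most scattered in the Nlgn1 panel.

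Other genes of the pathway were taken from lists of known partners. Of 24 secreted or postsynaptic partners of neurexins and cerebellins, 23 were tested, and 16 were higher and 3 lower in neurons than in glia, where 36.4% of all genes tested were higher and 46.8% lower. Of 11 intracellular partners, 10 were higher and 1 was lower. The median log2 difference was 0.75 and 1.24 in these lists and -0.18 over all genes tested. Of the 3 splice regulators 2 were higher and 1 was lower, and so were the 3 sheddases. Over all lists, the largest rises in neurons were those of the adaptor Lin7a (3.57 on the log2 scale), the calsyntenin Clstn2 (3.35) and the postsynaptic neurexin ligand Lrrtm2 (2.94), and the largest falls those of the latrophilin Adgrl2 (-1.43), the secreted C1q family member C1ql1 (-1.04) and Khdrbs3 (-0.999). Khdrbs3 was at 6.70 TPM in cerebellar granule cells, 105 to 404 TPM in the other neurons and 145 and 146 TPM in microglia and astrocytes. C1ql1 was at 0.214 TPM in cerebellar granule cells, 1.40 in dentate granule cells, 3.71 in layer V neurons and 31.2 in interneurons. It was at 6.17 TPM in astrocytes and 2.85 TPM in microglia, so its highest level was in interneurons. For both genes the neuronal mean log2 level holds the low cerebellar granule cells. In astrocytes against microglia, 21 of the 23 secreted or postsynaptic partners were higher and 1, Car11 (-0.31), was lower. Of all genes, 39.8% were higher and 36.3% lower. The latrophilin Adgrl3 (3.35) and the cerebellin receptor gene Grid1 (3.07) were among the 21. From the other lists, the sheddase gene Adam10 (-1.76) and the adaptor Sdcbp (-1.09) were lower.

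The other ligands and receptors also differed between neurons. In cerebellar granule cells, 9 of 23 secreted and postsynaptic partners were higher and 13 lower than in the other neurons, and 5 of 11 intracellular partners were higher and 4 lower. Of all genes tested, 34.9% were higher and 43% lower in this comparison. Lin7a (3.58), the neurexophilin Nxph4 (2.64) and the synaptic adhesion gene Igsf21 (2.55) rose most. The C1q family ligand genes C1ql2 and C1ql3 were at 0.00994 and 0.105 TPM there. In the other neurons C1ql2 was at 464 TPM in dentate granule cells, 10.5 in layer V neurons and 3.08 in interneurons, and C1ql3 at 500.2, 191 and 7.58 TPM. The neurexophilin Nxph2 was at 0 in cerebellar granule cells against a mean of 6.78 TPM in the other neurons. Grid1, whose product is a receptor of cerebellins and which was named here after its values were seen, was at 0.271 TPM in cerebellar granule cells and at 38.2 to 56.9 TPM in the other 3 neurons.

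In dentate granule cells 9 of the 23 were higher and 12 lower, where 36.5% of all genes were higher and 27.6% lower. C1ql2 (9.21), C1ql3 (6.47) and the neurexin ligand Lrrtm4 (3.19) rose most on the log2 scale, and Lin7a (-2.32), Igsf21 (-1.83) and the neurexophilin Nxph1 (-1.79) fell most. Layer V neurons had 16 higher and 4 lower, where 35.9% of all genes were higher and 31.7% lower. C1ql3 (4.93), Khdrbs3 (3.21) and Adgrl2 (2.34) were at the top and the adaptor Lin7c (-1.12), Clstn2 (-1.01) and Khdrbs1 (-0.83) at the bottom. Yet C1ql3 was lower in layer V neurons (191 TPM) than in dentate granule cells (500 TPM). The mean log2 level of the other neurons holds cerebellar granule cells, at 0.105 TPM of C1ql3. Interneurons had 11 higher and 10 lower, and 8 of the 11 intracellular partners were lower, where 36% of all genes were higher and 28.4% lower. Nxph2 (7.50), Nxph1 (6.97) and C1ql1 (4.79) led, with Nxph4 (-2.50), Igsf21 (-2.02) and Lin7c (-2.02) lowest. The comparisons of 1 neuronal type share their control libraries, so these lists are not independent of each other, and 64.2% to 77.9% of all genes were called in them. The neuroligin blockers were named after their values were seen. Mdga2 was at 1.06 TPM in cerebellar granule cells and 8.62 to 14.9 TPM in the other neurons, and Mdga1 at 11.1 and 11.7 TPM in cerebellar and dentate granule cells and 4.26 and 4.57 TPM in layer V neurons and interneurons.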

How the data were processed

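Ribosome-bound mRNA of 6 cell types was sequenced by the authors, whose notes name cutadapt 3.5 for trimming and kallisto 0.46.2 for quantification against GENCODE M24 mouse transcripts. The deposited values are estimated counts and TPM per transcript, which were summed per gene here. Of 22 libraries, 18 were used: 4 replicates had been sequenced in both batches and the first was taken. No column of per-sample values was left unmapped.

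Estimated counts were rounded and tested with edgeR 4.0.16 (TMM factors, filterByExpr by cell type, quasi-likelihood test, Benjamini-Hochberg over 20524 genes, threshold 0.05) in R 4.3.3. The standard error is the log2 difference over the square root of F. Each contrast sets a cell type against the mean log2 level of the others. The test was tested on simulated data in a comparison of cerebellar granule cells with the other neurons over 19454 genes, where it called 171 of 200 changed genes. DESeq2 1.42.0 and limma 3.58.1 on log2(TPM + 0.5) or log2(TPM + 0.1) were alternatives. The authors' own test, sleuth with batch, was not run. Coordinates come from GENCODE M21 on GRCm38.p6.

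The members and gene lists were chosen with earlier results of these data known. Named were all members, the 3 partners with the largest rise and fall in each comparison, transcripts with at least 5% of their gene's TPM, and the 3 genes closest to each member. Replicate numbers were not used to pair the samples in the main fits, and intervals on counts cover counting error alone. One partner gene and the sequence of some regions are not reported here.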

Additional observations from a re-analysis of the deposited data

How the results depend on the processing

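The count of members called stayed within 1.5 times the reported one in every comparison and setting run, and DESeq2 or RLE size factors kept the side of the threshold and the direction of all 54 member results. Leaving out 1 library kept 947 of 972, with 7 to 8 members called for neurons against glia, 9 for cerebellar granule cells, 7 to 9 for dentate granule cells, 7 to 8 for each of the other 3 comparisons and 35 to 37 of the steps between neighbours. Calls that turned on 1 library included, beside those given with the results, the Nrxn2 step from layer V neurons to interneurons, lost without layer V replicate 1 (0.16) or interneuron replicate 3 (0.17). Others were the Cbln1 step from interneurons to astrocytes, gained without interneuron replicate 2 (-0.91), and Cbln1 in layer V neurons, gained without dentate replicate 1 (-0.46). Of 1332 results for neurexin transcripts with 1 library left out, 10 lost the call and 4 gained it. Differences near 0 changed sign when 1 library was left out, with ranges of -0.053 to 0.11 for Cbln4 in neurons against glia, -0.030 to 0.15 for Cbln3 in astrocytes against microglia, -0.16 to 0.25 for Cbln4 in dentate granule cells over microglia, -0.16 to 0.011 for Nlgn1 in interneurons over astrocytes, -0.041 to 0.063 for Nlgn2 in interneurons over layer V neurons, -0.022 to 0.076 for Nlgn3 in interneurons, -0.088 to 0.027 for Nrxn2 in dentate granule cells over astrocytes and -0.021 to 0.16 for transcript Nrxn3-214 in interneurons. The neuron minus glia beta share ran from 2.70 to 6.01 points for Nrxn2 and from -0.026 (without cerebellar granule cell replicate 3) to 4.07 for Nrxn3.

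With cerebellar granule cells left out, chosen after seeing the data, the sign turned for Cbln2 and Cbln4 in neurons against glia (1.24 and 2.00), Cbln1 in dentate granule cells (0.16), Cbln1, Cbln3, Cbln4 and Nrxn3 in layer V neurons (2.61, 0.029, -0.46 and 0.094) and Cbln3, Nrxn2 and Nlgn3 in interneurons (0.84, 0.054 and -0.25), since each contrast is a mean over cell types. On log2 TPM with limma, with a pseudocount of 0.5 and then 0.1, Cbln4 in neurons against glia was 1.00 and 0.69, Nrxn2 in layer V neurons -0.19 in both, Nlgn1 in interneurons 0.0059 and 0.0083, Cbln2 in interneurons over layer V neurons 0.079 and 0.080, Nrxn2 in dentate granule cells over astrocytes 0.53 in both, Nlgn1 in dentate granule cells over layer V neurons 0.086 in both and in interneurons over astrocytes 0.13 in both, Nlgn2 in interneurons over layer V neurons 0.23 and 0.24, and Cbln2 in neurons against glia 0.25 with 0.5. With no filter, Cbln4 in neurons against glia was 0.0010 and Nlgn2 in interneurons over layer V neurons 0.029, with at least 50 counts Nlgn3 in interneurons was -0.013, and with RLE factors transcript Nrxn3-214 in interneurons was -0.0056.

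With second-batch libraries for the repeated replicates, Cbln4 in neurons against glia was 0.038 and Nlgn2 in interneurons over layer V neurons 0.0015. With 22 libraries and batch as a term these turned: Cbln4 in neurons against glia (0.10), Nlgn3 in interneurons (-0.021), Cbln3 in astrocytes against microglia (-0.013) and Nrxn2 in dentate granule cells over astrocytes (0.0015). Within the first batch, Cbln4 in dentate granule cells was 1.78, Nrxn2 and Nrxn3 in layer V neurons -0.020 and 0.18, and the Nrxn2 beta share difference 16.6 points. Within the second, Cbln4 was 0.17 in neurons against glia and 0.32 in dentate granule cells, Nlgn3 in interneurons -0.037 and in astrocytes over layer V neurons -0.061, Cbln3 in astrocytes against microglia -0.22, Nrxn2 in dentate granule cells over astrocytes 0.10, and the beta share differences -5.28 points for Nrxn2 and -1.64 for Nrxn3. The cause of these changes was not tested. Libraries of the same replicate number in different cell types had weakly correlated deviations from their cell type means (r from -0.0999 to 0.109 over 45 pairs of libraries). Still, 15 of 18 libraries were closest to their own number, and the source of this was not tested. The replicate block changed no call of a member, leaving 8 for neurons against glia. Depth limits Cbln2 and Cbln4 in cerebellar granule cells and Cbln3 outside them.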
